A study of Rattus norvegicus with 14 samples.

Results

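Dusp4 is a gene for a nuclear phosphatase that switches off the ERK MAP kinases, and it is described here beside 9 other genes for feedback inhibitors of the ERK pathway, Dusp1, Dusp5, Dusp6, Dusp8, Spry1, Spry2, Spry4, Spred1 and Spred2. The 10 symbols were chosen by gene family around Dusp4, and Dusp4 itself was selected on its lower level in neurons given allopregnanolone (Allo), so that difference is described without a test. All 10 were listed and passed the minimum level in both cell types, out of 18239 genes listed for neurons and 31791 for astrocytes. RNA was sequenced from primary hippocampal cultures of rats at embryonic day 18, a neuron culture and an astrocyte culture. Every library came from aging model (AM) medium, in which the supplements are reduced for neurons and the serum is charcoal-stripped for astrocytes. Neurons on day 10 in culture spent 4 h in it and then 16 h with vehicle, 0.001% ethanol (AM-Veh, 4 libraries), or with 100 nM Allo (AM-Allo, 4 libraries). Astrocytes spent 24 h in it and then 24 h with vehicle (3 libraries) or 100 nM Allo (3 libraries).

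ERK signaling runs from receptor tyrosine kinases through RAS, RAF and MEK to ERK, and in neurons it links receptor activity to transcription and synaptic plasticity. Active ERK also induces the genes of its own inhibitors, which makes their transcripts a common readout of recent pathway activity. Dual-specificity phosphatases (DUSPs) remove the activating phosphates from MAP kinases. Dusp4 and Dusp1 encode nuclear enzymes that act on several MAP kinases, Dusp5 a nuclear enzyme specific for ERK, Dusp6 a cytoplasmic enzyme specific for ERK, and Dusp8 an enzyme that prefers JNK and p38. Sprouty proteins (Spry1, Spry2, Spry4) act between the receptor and RAF, and Spred proteins (Spred1, Spred2) hold RAS inactive by bringing neurofibromin to the membrane.

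The promoters of 2 phosphatase genes are printed because their values differed in pattern in neurons, Dusp5 being lower in every AM-Allo library and Dusp1 not. Whether the 2 genes differ in response, and any part of promoter elements in it, was not tested. RefSeq promoter sequences of the GRCr8 assembly, 250 bases before to 50 after the start of a gene, were found for 9 of the 10 genes. The gene without one was Dusp4, so its promoter was not searched. GRCr8 is another assembly than the one behind the deposited values. The Dusp5 window lies at chr1:262543524-262543823 on the plus strand, and its capitals mark 2 matches to the CArG box, the element bound by serum response factor. The Dusp1 window lies at chr10:17184603-17184902 on the plus strand, and its capitals mark the cAMP response element (CRE) TGACGTCA.

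Dusp5: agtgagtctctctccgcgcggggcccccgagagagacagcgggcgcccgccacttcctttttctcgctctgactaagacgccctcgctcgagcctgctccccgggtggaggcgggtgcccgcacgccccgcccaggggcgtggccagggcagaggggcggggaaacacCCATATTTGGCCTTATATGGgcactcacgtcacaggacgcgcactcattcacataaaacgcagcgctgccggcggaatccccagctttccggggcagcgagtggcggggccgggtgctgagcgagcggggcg

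Dusp1: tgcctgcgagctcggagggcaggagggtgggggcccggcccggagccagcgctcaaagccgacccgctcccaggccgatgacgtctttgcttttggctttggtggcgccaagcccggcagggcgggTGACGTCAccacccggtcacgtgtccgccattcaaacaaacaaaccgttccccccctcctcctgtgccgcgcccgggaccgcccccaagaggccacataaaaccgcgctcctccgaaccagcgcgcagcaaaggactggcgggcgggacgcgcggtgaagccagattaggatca

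The 2 CArG boxes of Dusp5 adjoin each other, from 82 to 73 and from 72 to 63 bases before the start, and Dusp5 was the only one of the 9 genes with this match. Of 33469 promoter windows of the same length, 1.64% held a CArG box on either strand. The full CRE was found for Dusp1 alone among the 9 and in 1.83% of all windows. Its 5-base core TGACG, which also lies within each full CRE, was found for 4 of the 9 (Dusp1, Dusp5, Spred2 and Spry2) and in 21.2% of all windows. The AP-1 element TGANTCA and the ETS motif CCGGAAG, present in 7.33% and 8.75% of windows, were found for 0 of the 9. These are matches of letters only, and binding was not measured.

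Depth, read from the step between low values, was about 19700000 to 25000000 reads in the neuron libraries, and those of astrocytes had 22200000 to 28500000. The named cell types were checked against 10 markers each, and the neuron libraries held glial transcripts in quantity. The neuron markers listed, 9 of the 10 (Snap25 had no row), summed to 51178 to 56426 normalized counts in AM-Veh neurons and 53609 to 61258 in AM-Allo neurons. All 10 astrocyte markers were present there too, with sums of 234125 to 285075 in AM-Veh and 234474 to 278541 in AM-Allo and Gfap at a mean of 92703. All 10 oligodendrocyte lineage markers were present, with sums of 52725 to 56767 and 53850 to 60834. Microglia markers summed to at most 48.7 and 57.1, and mesenchymal and endothelial markers to 248 to 1172 and 333 to 2230. Of the neuron markers, 5 had an unadjusted p under 0.05 between AM-Allo and AM-Veh (Map2, Tubb3 and Slc17a7 higher by 0.10, 0.21 and 0.29 on the log2 scale, Nefl and Gad2 lower at −0.23 and −0.45), with 0 of the 10 astrocyte and 1 of the 10 oligodendrocyte lineage markers (Cnp higher). With the first part of their replicate number as a block these counts were 7 of 9, 2 of 10 and 6 of 10. With the whole number as a block they were 7 of 9, 4 of 10 and 6 of 10. The share of all genes tested was 5.69% without a block, 11.0% with the first part and 10.7% with the whole number. At an adjusted p under 0.05 by limma, 3 of 9 neuron markers passed with either block, beside 0.679% and 0.607% of all genes. With the whole number, 1 of 10 oligodendrocyte lineage and 1 of 6 tested mesenchymal and endothelial markers passed too. The part of cell makeup in the levels of Dusp4 and Dusp5 was not tested. Astrocyte libraries held astrocyte markers at sums of 269194 to 283874, mesenchymal and endothelial markers at 56631 to 67889 and microglia markers at 1474 to 1904. Their neuron markers summed to 26692 to 28264, with Stmn2 at a mean of 21769 and Map2 at 3712. The neuron markers Rbfox3, Nefl, Slc17a7 and Gad2 were below a mean of 10. Oligodendrocyte lineage markers summed to 6536 to 6995. Between AM-Allo and AM-Veh astrocytes, 2 of 10 astrocyte, 1 of 5 tested neuron and 1 of 10 microglia markers had an unadjusted p under 0.05, each lower in AM-Allo. The share of all genes tested there was 7.01%.

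In neurons, Dusp4 was lower in AM-Allo than in AM-Veh. The AM-Veh libraries, in the order 1-1, 1-2, 2-1 and 2-2 of their replicate numbers, held 1132, 1020.0, 1215 and 1091 normalized counts of Dusp4. The AM-Allo libraries in the same order held 648, 636, 785 and 725. The highest AM-Allo library thus lay below the lowest AM-Veh library, and the member of each of the 4 same-numbered pairs given Allo was the lower one. The group means were 1115 ± 81.4 (SD, n = 4) and 699 ± 70.0 (SD, n = 4) normalized counts, a ratio of 0.627 and a log2 fold change of −0.68. The difference of the variance-stabilized values, which have their own scale, was −0.44. Since these libraries are bulk RNA, fewer cells of a type and less RNA per cell cannot be told apart.

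Among the other 9 genes, Dusp5 was the one whose groups did not overlap. Its AM-Veh libraries held 157, 142, 156 and 113 normalized counts, in the same order as above. Its AM-Allo libraries held 108, 91.0, 96.3 and 75.5. The means were 142 ± 20.6 (SD, n = 4) and 92.6 ± 13.3 (SD, n = 4), a ratio of 0.652. The log2 fold change was −0.61 (standard error 0.14), with an unadjusted p of 0.00153 and an adjusted p of 0.442 in limma over all 15314 genes tested. The labels do not say whether libraries of the same replicate number are pairs. With the number as a block the adjusted p by limma was 0.0465 (first part of the number) and 0.0221 (whole number). With the variance-stabilized values the difference was smaller, −0.18, with an adjusted p of 0.0268 by limma without a block. Those values had equal means for both first parts of the number in every gene, so this p may be too small. Permuting the library labels without regard to replicate number gave a two-sided exact p of 0.0286, the smallest that 4 libraries against 4 allow. Any gene whose groups do not overlap gets this value, so it adds nothing to the lack of overlap. Thus 1 of the 9 had an unadjusted p under 0.05, beside 5.69% of all genes tested, 0 had an adjusted p under 0.05, beside 0.0261%, and 1 lay wholly below AM-Veh, beside 1.89%. The list was drawn up with this contrast known, so nothing is read from these shares.

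**Figure D1:**
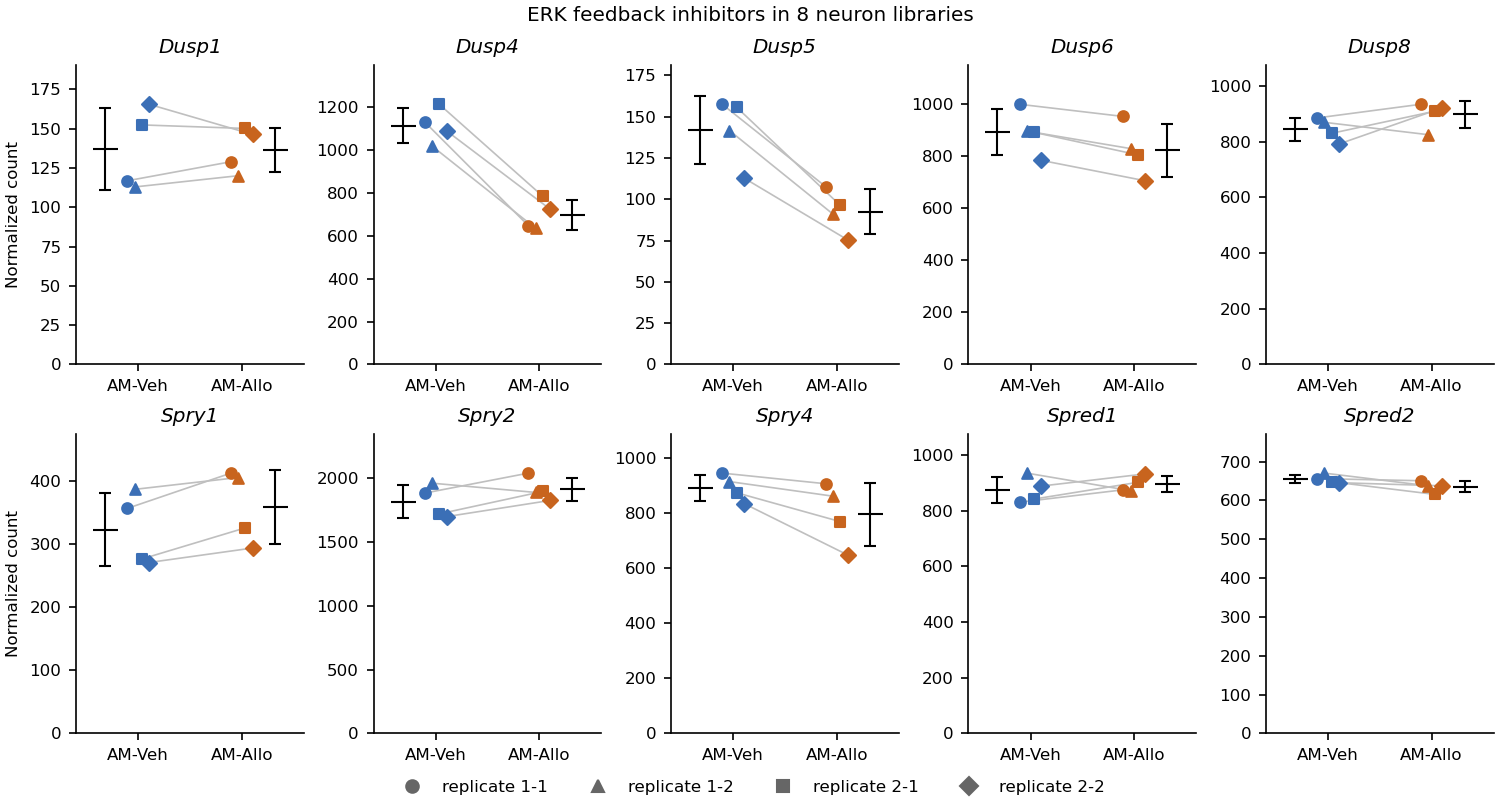
Normalized counts (vertical axes, from 0) of the 10 genes in the 8 neuron libraries, AM-Veh in blue and AM-Allo in orange, with a marker for each replicate number, grey lines joining libraries of the same number, and black bars for the mean ± SD of each group. The orange points lie wholly below the blue points for Dusp4 and Dusp5, and the groups overlap for the other 8 genes.

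The remaining DUSP genes overlapped between the groups. Dusp6 was at 1000, 897, 892 and 784 normalized counts in the AM-Veh libraries and at 953, 830, 806 and 706 in the AM-Allo libraries. Each AM-Allo library was below its same-numbered AM-Veh library, with log2 differences of −0.069, −0.11, −0.15 and −0.15. The log2 fold change was −0.12 (95% confidence interval −0.33 to 0.087, unadjusted p = 0.227 by limma), and with the whole number as a block the unadjusted p was 0.0137 and the adjusted p 0.314. Dusp1 was at 117, 113, 152 and 165 normalized counts in AM-Veh and at 129, 120.0, 150.1 and 146 in AM-Allo. Its log2 fold change was 0.0077 (95% confidence interval −0.31 to 0.32). Dusp8 was at 885, 869, 830 and 792 normalized counts in AM-Veh and at 934, 825, 910 and 922 in AM-Allo, with 3 of 4 pairs higher in AM-Allo and a log2 fold change of 0.088 (95% confidence interval −0.031 to 0.21).

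The Sprouty genes did not share a direction. Spry4 was at 944, 913, 873 and 834 normalized counts in AM-Veh and at 905, 860.3, 768 and 647 in AM-Allo, lower in 4 of 4 pairs, with a log2 fold change of −0.17 (standard error 0.093, unadjusted p = 0.0913 by limma). Spry1 was at 357, 387, 276 and 271 normalized counts in AM-Veh and at 413, 406, 326 and 294 in AM-Allo, higher in 4 of 4 pairs, with a log2 fold change of 0.16 (standard error 0.14, unadjusted p = 0.295 by limma). Spry2 was at 1882, 1960, 1719 and 1698 normalized counts in AM-Veh and at 2038, 1887, 1895 and 1824 in AM-Allo, higher in 3 of 4 pairs. Its log2 fold change was 0.076 (95% confidence interval −0.043 to 0.20). For all 3 Sprouty genes the groups overlapped.

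The Spred members had the narrowest intervals. Spred1 lay between 831 and 935 normalized counts in AM-Veh and between 872 and 932 in AM-Allo, with a log2 fold change of 0.036 (95% confidence interval −0.072 to 0.14). Spred2 lay between 645 and 670.2 in AM-Veh and between 615 and 651 in AM-Allo, lower in 4 of 4 pairs, with a change of −3.01% in the mean and a log2 fold change of −0.044 (95% confidence interval −0.14 to 0.049). Over the 9 genes without Dusp4, 5 were higher and 4 lower in AM-Allo, with a median log2 fold change of 0.0077, beside −0.0015 over all genes tested.

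Neuron libraries with the same first part of their replicate number varied together, and a fit with the number as a block gave more calls. Blocking on the first part of that number, 3 of the 9 had an unadjusted p under 0.05, Dusp5 and Spry4 lower and Spry1 higher, beside 11.0% of all genes. With the whole number as a block 4 did, Dusp6 joining them on the lower side, beside 10.7%. Dusp5 was the only 1 of the 9 with an adjusted p under 0.05 by limma in either fit, where the share of all genes was 0.679% and 0.607%. The unadjusted p-values from the blocks were 0.00942 and 0.00627 for Spry4, 0.0246 and 0.0308 for Spry1, and 0.0713 and 0.0137 for Dusp6. Their adjusted p-values stayed between 0.234 and 0.509. Without a block, leaving out AM-Allo 1-1 brought the unadjusted p of Spry4 to 0.0238 and of Dusp6 to 0.0488, and leaving out AM-Allo 1-2 brought that of Dusp8 to 0.0312.

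**Figure D2:**
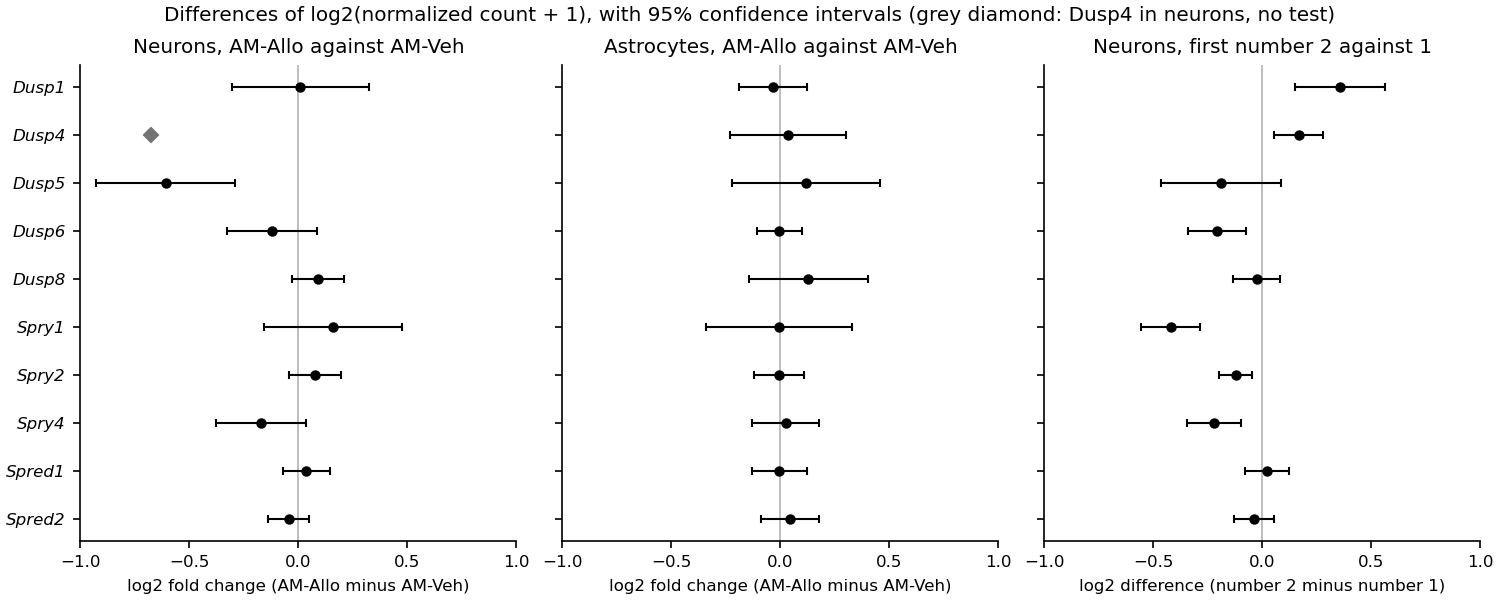
Differences on the log2(normalized count + 1) scale (horizontal axes) for the 10 genes, with points for the limma estimate, bars for its 95% confidence interval and a grey diamond, without an interval, for Dusp4 in neurons. In the left panel the interval of Dusp5 lies below 0, in the middle panel all 10 astrocyte intervals span 0, and in the right panel 6 intervals for first replicate number 2 against 1 lie away from 0.

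How far the genes varied between the neuron libraries apart from treatment was read from the leading digit of the replicate number (the first number), whose meaning the labels do not give. Of the 10 genes, 6 differed between number 2 and number 1 at an adjusted p under 0.05 by limma with treatment in the model, beside 17.2% of all genes tested. Spry1 differed most, at 391 ± 25.0 (SD, n = 4) normalized counts over the libraries of number 1 and 292 ± 24.8 (SD, n = 4) over those of number 2 (log2 difference −0.42, adjusted p = 0.000252). Every library of number 2 lay below every library of number 1, as for 9.47% of all genes. Dusp1 went the other way, from 120 ± 6.83 (SD, n = 4) to 154 ± 8.33 (SD, n = 4) (log2 difference 0.36, adjusted p = 0.0184), with every library of number 2 above, as for 10.2% of all genes. Spry4 (log2 difference −0.22, adjusted p = 0.0151), Dusp6 (−0.21, adjusted p = 0.0295) and Spry2 (−0.12, adjusted p = 0.0272) were lower in number 2 and Dusp4 was higher (0.17, adjusted p = 0.0394). Between these numbers 7 of 10 oligodendrocyte lineage markers (6 lower in number 2), 7 of 10 astrocyte markers (3 lower) and 4 of 6 tested mesenchymal and endothelial markers (4 lower) also had an adjusted p under 0.05, and their part in the result was not tested. Without limma's trend of variance with level, only Dusp1 and Spry1 had an adjusted p under 0.05. Leaving out 1 library left Spry1 under 0.05 in all 8 cases. For the others the adjusted p rose above 0.05 without any of 6 libraries for Dusp4 (0.0679 to 0.134), 5 for Spry2 (0.0673 to 0.101), 4 for Dusp6 (0.0774 to 0.125), 2 for Dusp1 (0.0579 without AM-Veh 1-2 and 0.0611 without AM-Veh 2-2) and 1 for Spry4 (0.0693 without AM-Allo 1-1). The log2 differences kept their direction over the 8 omissions, at 0.13 to 0.21 for Dusp4, −0.15 to −0.10 for Spry2, −0.25 to −0.16 for Dusp6, 0.31 to 0.40 for Dusp1 and −0.26 to −0.15 for Spry4.

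For the 10 genes no difference in the response to Allo between the first numbers passed the test. Within number 1 Dusp4 went from a mean of 1076 to 642 normalized counts (2 libraries each), and within number 2 from 1153 to 755. These are changes of −40.3% and −34.5%, and the interaction was 0.13 on the log2 scale (95% confidence interval −0.077 to 0.34, adjusted p = 0.730 by limma). Dusp5 went from 149.5 to 99.3 within number 1 and from 134 to 85.9 within number 2, changes of −33.6% and −36.0%, with an interaction of −0.042 (95% confidence interval −0.60 to 0.52). The widest gap among the Sprouty genes was that of Spry4, with −4.93% within number 1 and −17.1% within number 2 (interaction −0.20, unadjusted p = 0.0727). Dusp8 was 0.275% higher within number 1 and 12.9% higher within number 2 (interaction 0.17, unadjusted p = 0.0743). Dusp1 had the largest estimate and changed direction, at 8.38% higher within number 1 and −6.75% within number 2 (interaction −0.21, unadjusted p = 0.282). None of the 10 interactions reached an unadjusted p of 0.05 by limma, beside 9.53% of all genes. Of the 9 neuron markers tested, 8 did, and all 9 estimates were positive (median 0.30 on the log2 scale). Stmn2 changed by −1.15% within number 1 and 21.7% within number 2, and Gad1 by −37.0% and −10.4%. The part of these markers in the results was not tested.

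In astrocytes, whose values the rule for the genes did not use, none of the 10 passed the test between AM-Allo and AM-Veh. Dusp4 was at 274, 225 and 192 normalized counts in AM-Veh libraries 1, 2 and 3 and at 245, 236 and 221 in the AM-Allo libraries of the same numbers. The AM-Allo values lay inside the range of the AM-Veh values, with means of 230.5 ± 41.2 (SD, n = 3) and 234 ± 12.1 (SD, n = 3). The log2 fold change was 0.035 (95% confidence interval −0.23 to 0.30, adjusted p = 0.977 by limma). Whether the responses of the cell types differ was not tested, since their values were normalized separately and they differed in treatment time. Dusp5 was at 89.5, 127 and 104 normalized counts in AM-Veh and at 126, 116 and 103 in AM-Allo, with a log2 fold change of 0.12 (95% confidence interval −0.22 to 0.46).

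**Figure D3:**
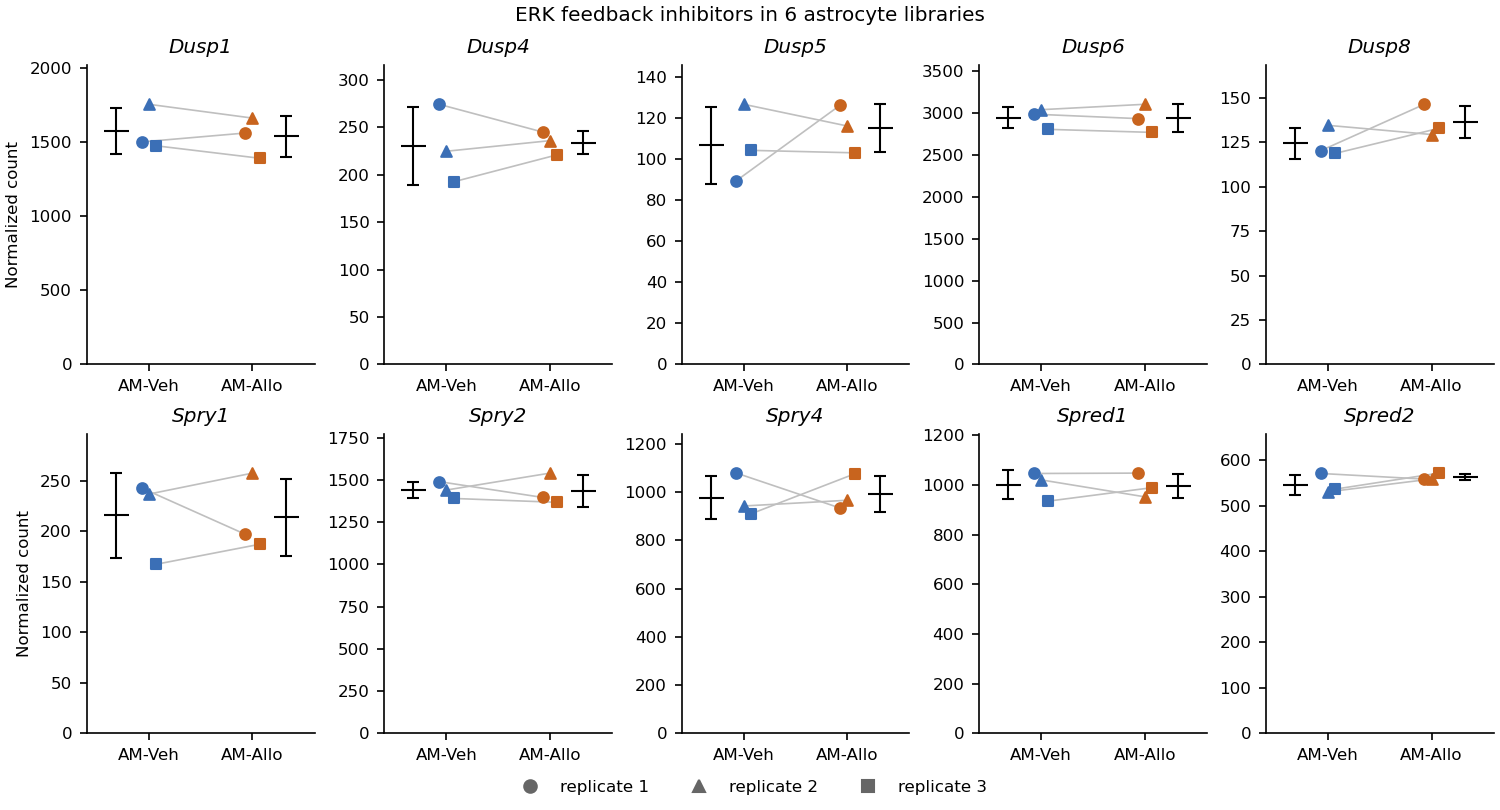
Normalized counts (vertical axes, from 0) of the 10 genes in the 6 astrocyte libraries, AM-Veh in blue and AM-Allo in orange, with a marker for each replicate number, grey lines joining libraries of the same number, and black bars for the mean ± SD of each group. The groups overlap for all 10 genes.

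The other 8 genes had log2 fold changes from −0.035 (Dusp1) to 0.13 (Dusp8) in astrocytes. Dusp6 was at 2984, 3038 and 2803 normalized counts in AM-Veh and at 2931, 3102 and 2767 in AM-Allo, a log2 fold change of −0.0048 (95% confidence interval −0.11 to 0.098). Dusp1 was at 1502, 1756 and 1476 in AM-Veh and at 1562, 1663 and 1392 in AM-Allo. For both genes the group means differed by less than the SD of the vehicle libraries. Over all 10 genes, 0 had an unadjusted p under 0.05 by limma (beside 7.01% of 15380 genes) and 0 an adjusted p under 0.05 (beside 0.00650%). None lay wholly below AM-Veh (beside 6.07%) or wholly above it (beside 6.42%). The lowest adjusted p was 0.879, and the lowest p in the exact permutation tests was 0.3, where 3 libraries against 3 cannot go below 0.1.

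The 2 cultures held these genes at different levels, which are given side by side as descriptions because each table was normalized on its own. The neuron libraries also held astrocyte and oligodendrocyte lineage markers in quantity, and medium and times differed. These levels are therefore those of whole cultures and are not assigned to a cell type. Dusp8 and Dusp4 were higher in the neuron cultures, with AM-Veh means of 844 normalized counts of Dusp8 there and 124 in the astrocyte cultures (6.78-fold). For Dusp4 they were 1115 and 230.5 (4.84-fold). Dusp1 and Dusp6 were higher in the astrocyte cultures, at 137 in neuron and 1578 in astrocyte cultures for Dusp1 (11.5-fold) and at 893 and 2942 for Dusp6 (3.29-fold). In none of these 4 did the ranges of the 2 cultures overlap over all libraries. The share of all genes without such overlap was not computed, so nothing particular to these genes is read from it. The lowest neuron library for Dusp4, an AM-Allo library at 636, remained above the highest astrocyte library at 274. Spry1 (323 in neuron and 215 in astrocyte cultures), Spry2 (1815 and 1440.5) and Spred2 (655 and 546) were also higher in the neuron cultures without overlap. For Dusp5, Spry4 and Spred1 the ranges of the cultures overlapped.

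**Figure D4:**
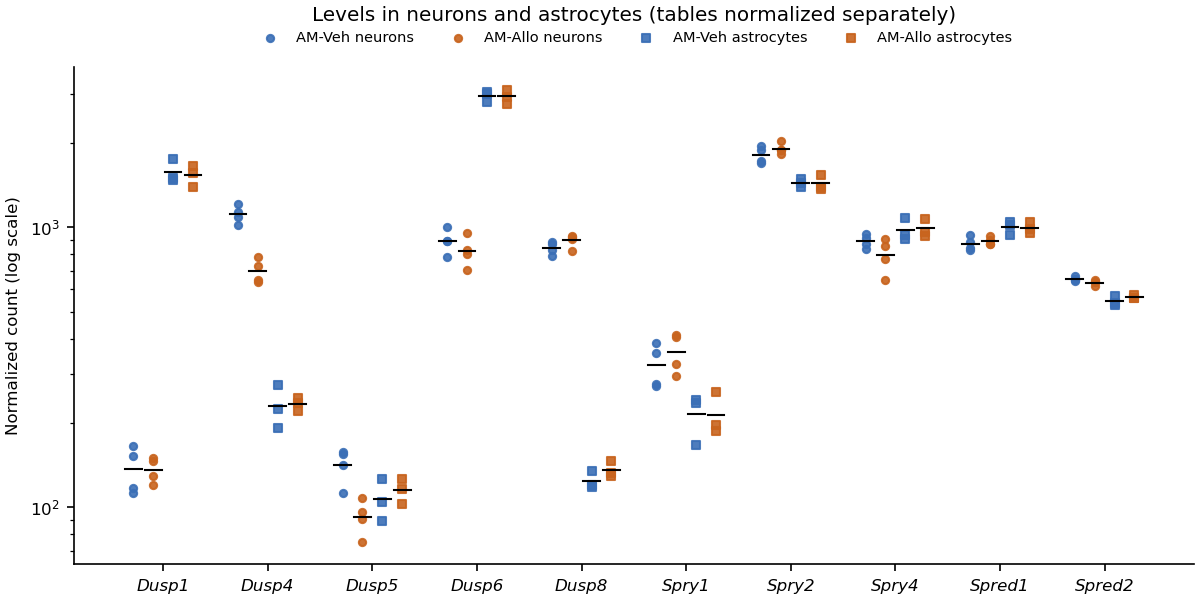
Normalized counts on a log scale (vertical axis) of the 10 genes in each library, circles for neurons and squares for astrocytes, blue for AM-Veh and orange for AM-Allo, with black lines at the group means. Dusp4 and Dusp8 lie higher in the neuron libraries, and Dusp1 and Dusp6 higher in the astrocyte libraries.

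Among genes of the same families outside the 10, Spred3, which encodes the third Spred protein, was lower in AM-Allo neurons. Its AM-Veh libraries held 412, 386, 491 and 485 normalized counts and its AM-Allo libraries 311, 313, 304 and 336. The groups did not overlap, with AM-Allo wholly below AM-Veh as for 1.89% of all genes. The log2 fold change was −0.48 (standard error 0.085, unadjusted p = 0.000183, adjusted p = 0.195 by limma), and the adjusted p was 0.00512 with the first number as a block and 0.0121 with the whole number. With the variance-stabilized values the difference was −0.24, with an adjusted p of 0.00419 by limma without a block, which may be too small as for Dusp5. Spred3 was the 1 of the 6 such genes tested in neurons with an unadjusted p under 0.05, beside 5.69% of all genes. The phosphatase gene Dusp7 averaged 1267 normalized counts with vehicle and 1309 with Allo (log2 fold change 0.046, unadjusted p = 0.275 by limma). In astrocytes Spred3 averaged 544 ± 56.9 (SD, n = 3) with vehicle and 499.5 ± 28.2 (SD, n = 3) with Allo (log2 fold change −0.12, 95% confidence interval −0.30 to 0.057). There Dusp7 was the 1 of 4 tested genes with an unadjusted p under 0.05, beside 7.01% of all genes (956 to 1069, log2 fold change 0.16, adjusted p = 0.692 by limma). Its groups overlapped, and this count ran from 0 to 2 over other settings and single libraries left out.

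Other inhibitors of RAS-ERK signaling, such as RAS GTPase-activating proteins and tyrosine phosphatases of ERK, showed no call in neurons. Of these 15 genes, 0 had an unadjusted p under 0.05 by limma, beside 5.69% of all genes, and the log2 fold changes ran from −0.15 to 0.071. Pea15, which holds ERK in the cytoplasm, averaged 34958 normalized counts with vehicle and 34015 with Allo. Pebp1, the RAF kinase inhibitor protein, was at 12952 and 12912. In astrocytes 1 of 13 tested had an unadjusted p under 0.05, beside 7.01% of all genes. This was Erf, a repressor that ERK phosphorylates. It averaged 1111 ± 17.5 (SD, n = 3) with vehicle and 1261 ± 64.0 (SD, n = 3) with Allo (log2 fold change 0.18, adjusted p = 0.469 by limma). Pea15 and Pebp1 were at means of 49776 and 6219 normalized counts over the astrocyte libraries.

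Of 19 genes of the RAS-ERK cascade itself, 4 had an unadjusted p under 0.05 in neurons, beside 5.69% of all genes, and 0 an adjusted p under 0.05 by limma. With the first number as a block 7 had an unadjusted p under 0.05, beside 11.0%. Rps6ka1, which encodes a kinase activated by ERK, averaged 156 ± 22.9 (SD, n = 4) with vehicle and 200.2 ± 19.7 (SD, n = 4) with Allo (log2 fold change 0.36). Mapk3, which encodes ERK1 itself, had a log2 fold change of 0.14, and each of its AM-Allo libraries was above each AM-Veh library, as for 2.06% of all genes. Shc3, an adaptor of neuronal receptors, was lower (log2 fold change −0.17). Ptpn11, the gene of the phosphatase SHP2, was at 6827 and 6929 normalized counts. In astrocytes 0 of the 19 had an unadjusted p under 0.05, beside 7.01% of all genes, with Ptpn11 and Mapk3 at means of 6027 and 5484.

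Genes that respond to ERK were read beside its inhibitors. In neurons 6 of 20 had an unadjusted p under 0.05, 1 higher and 5 lower, beside 5.69% of all genes, and 0 an adjusted p under 0.05 by limma. With either block 8 had an unadjusted p under 0.05, beside 11.0% (first number) and 10.7% (whole number), and 1 had an adjusted p under 0.05 with the first number as a block. The median log2 fold change of the list was −0.11. Of the 3 with the highest counts, Egr1, an immediate-early transcription factor, was at 447, 516, 725 and 708 normalized counts in AM-Veh and at 458, 463, 415 and 419 in AM-Allo. The high AM-Veh values were those of first number 2, and library 1-1 was not lower with Allo. The change was −4.30% within number 1 and −41.7% within number 2, an interaction of −0.72 with an adjusted p of 0.0388 by limma, which 0.0784% of all genes passed at 0.05. Bdnf, a neurotrophin, was at 331 ± 36.9 (SD, n = 4) and 271 ± 22.3 (SD, n = 4) (log2 fold change −0.28). It was 1 of 3 genes of the 20 that lay wholly below AM-Veh, beside 1.89% of all genes. Another 1 of the 20 lay wholly above, beside 2.06%. Epha4, an ephrin receptor, was higher, at 1471 ± 46.0 (SD, n = 4) and 1723 ± 154 (SD, n = 4) (log2 fold change 0.22). Its adjusted p by limma was 0.569, against 0.0465 when blocked on the first number and 0.0657 when blocked on the whole number. Fosb, chosen for mention after its values were seen, had the largest fall of the list on the log2 scale (−0.91) at low counts, 17.1 ± 3.93 (SD, n = 4) and 9.01 ± 3.57 (SD, n = 4). Ccnd1 and Etv5, targets that follow sustained ERK activity, had log2 fold changes of 0.0062 and −0.034. In astrocytes 4 of 20 had an unadjusted p under 0.05, beside 7.01% of all genes, and 0 an adjusted p under 0.05 by limma (lowest 0.448). Ier3, Myc and Etv4 were higher by 0.27, 0.25 and 0.17 on the log2 scale, and Etv1 was lower at −0.11. Ccnd1 and Junb were at means of 10965 and 5045 normalized counts there. Leaving out AM-Veh 1 lowered the astrocyte count to 2, leaving out AM-Allo 1 raised it to 6, and dropping limma's trend left 1.

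**Figure D5:**
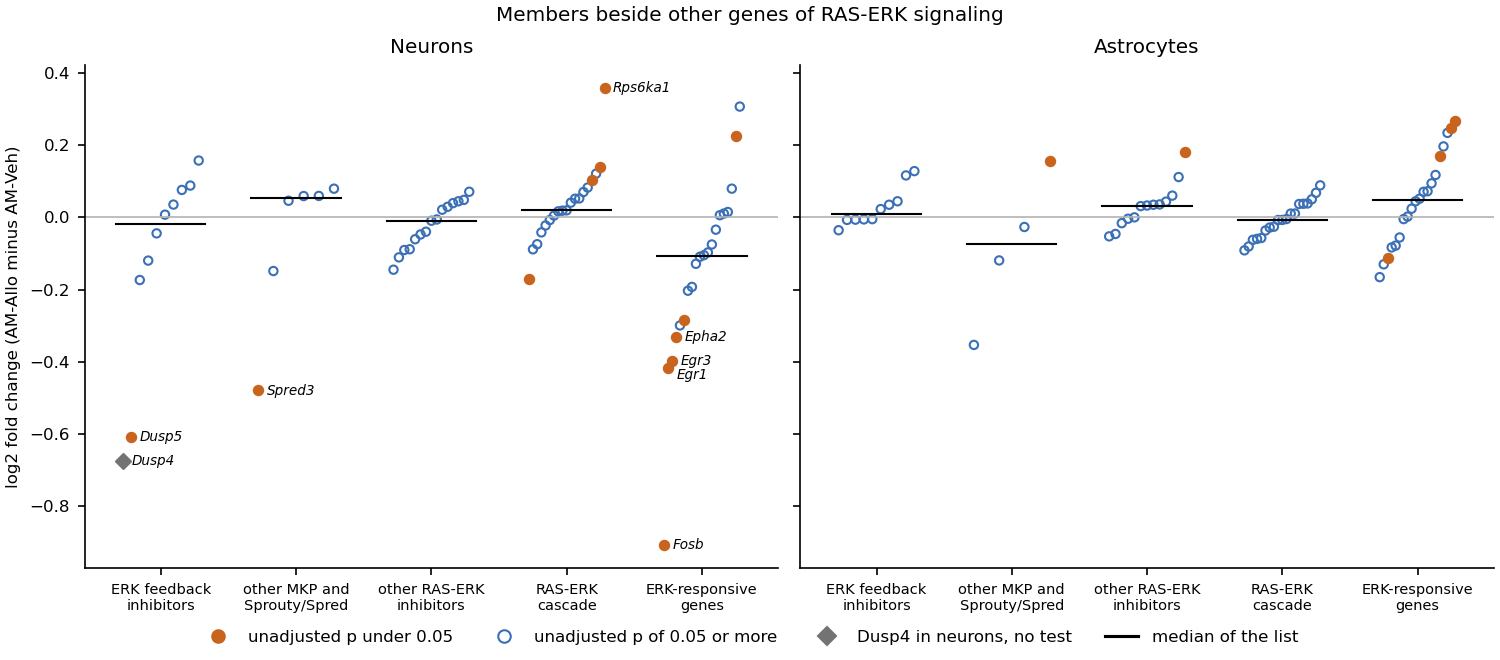
Log2 fold changes of AM-Allo against AM-Veh (vertical axes) for the 10 genes and 4 other lists of RAS-ERK signaling in neurons (left) and astrocytes (right), with filled orange points for an unadjusted p under 0.05, open blue points for other genes, a grey diamond for Dusp4 in neurons, which was not tested, and black lines for list medians. Dusp4, Dusp5, Spred3 and Fosb lie lowest in neurons, and the 10 genes lie between −0.035 and 0.13 in astrocytes.

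The genes whose levels followed Dusp4 most closely over the 8 neuron libraries were found by Pearson correlation of log2 values, as a description. Since the AM-Veh and AM-Allo values of Dusp4 form separate clusters, this measure mostly finds other genes that are lower in AM-Allo. The 5 nearest were Hivep2 (r = 0.987), Rgs4 (r = 0.983), a gene listed under an identifier without a symbol (r = 0.966), Crhbp (r = 0.960) and Rheb (r = 0.957). Rgs4, a regulator of G-protein signaling, averaged 1524 ± 129 (SD, n = 4) with vehicle and 859 ± 115 (SD, n = 4) with Allo, and Hivep2, a zinc finger transcription factor, averaged 2718 ± 83.7 (SD, n = 4) and 2138 ± 109 (SD, n = 4). Crhbp, which encodes the binding protein of corticotropin-releasing hormone, was at 95.3 ± 6.69 (SD, n = 4) and 53.1 ± 7.11 (SD, n = 4). Rheb, the GTPase that activates mTORC1, was at 3030 ± 30.0 (SD, n = 4) and 2857 ± 38.9 (SD, n = 4). Among the 9 other feedback inhibitors Dusp5 stood nearest to Dusp4 (r = 0.815, place 176 among all genes tested), and the rest ranged from −0.575 (Spry2) to 0.444 (Spred2).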

How the data were processed

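RNA was sequenced in 14 libraries, placed in groups by their labels. The labels do not say that replicates are separate cultures, so p-values measure the spread between these libraries, which may be technical. The authors selected poly(A) RNA, prepared stranded libraries, quantified transcripts with Salmon 0.14, summarized them per gene with tximport, and deposited normalized counts from DESeq2 1.18.1 (a signal per gene) and variance-stabilized values close to log2, separately per cell type. Every column was assigned (0 unused). Only 67.6% to 93.5% of the low values per library were whole reads (within 0.15), so no count test was run. Estimated depth was 19700000 to 28500000 reads per library.

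Normalized counts were transformed as log2(count + 1), on which fold changes of low genes are understated. Genes with a mean of at least 10 in a cell type (15314 in neurons, 15380 in astrocytes) were fitted with limma 3.58.1 in R 4.3.3, with a variance trend and no block, and adjusted by Benjamini-Hochberg over all genes tested. The first number of the neuron replicates was fitted with treatment, and its interaction in a further model. The fit was tested on simulated data. The 10 genes, the lists and the tests were chosen with earlier results of these data known. From the other lists, genes with an adjusted or unadjusted p under 0.05 (where more than 5, the 3 with the highest counts) and the 2 with the highest counts were named. A gene of the RAS-ERK cascade that this rule names is not reported here. Counts are not corrected for gene length, so levels are not compared between genes.

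The pairing was checked by correlating, over genes, the deviations of same-numbered AM-Veh and AM-Allo libraries from their group means. The correlation was 0.296, 0.229, 0.265 and 0.273 in neurons and −0.0070 to 0.024 in astrocytes, which were not taken as paired. Neuron libraries that shared only the first number gave 0.185, 0.236, 0.211 and 0.196. Those of different first numbers gave −0.319 to −0.15. These values show a grouping by first number in neurons and do not settle pairing by the whole number. Alternatives changed the pseudocount, the minimum level, the scaling, the values used, limma's variance settings and the block, or left out each library in turn.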

Additional observations from a re-analysis of the deposited data

Results flagged for a closer look

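The difference of Egr1 between AM-Allo and AM-Veh neurons depended on the first replicate number. The mean went from 481 to 461 normalized counts within number 1 and from 716 to 417 within number 2 (2 libraries each), and the test of the interaction gave an adjusted p of 0.0388 by limma.

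In AM-Veh neurons, the Mapk3 value of library 2-1 (2087 normalized counts) stood apart from those of 1-1, 1-2 and 2-2 (2132, 2133 and 2139), with a gap of 0.864 of the group's range. It was the 1 of 70 groups of 4 libraries checked in this way to do so, and chance alone flags about 1 in 20.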

How the results depend on the processing

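The number of the 9 other feedback inhibitors with an unadjusted p under 0.05 in AM-Allo neurons (1) was 4 with the variance-stabilized values, 3 with the replicate block by first number and 4 with the replicate block by whole number, and 1 to 3 with single libraries left out. The number with an adjusted p under 0.05 (0) was 1 with those values and 1 with either block, Dusp5 each time. For all genes in the neuron table, the variance-stabilized values of first numbers 1 and 2 had equal means (18239 genes, within 1e-06). The fit to these values had no block, so its p-values may be too small. These values also gave nothing for the comparison of first numbers. Its count (6) was 2 without limma's trend and 2 to 5 with single libraries left out. The count of interactions with Allo (0) was 0 to 1. In astrocytes the counts stayed at 0, and the block changed no call.

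The log2 fold change of Dusp4 in neurons lay between −0.73 and −0.63 with single libraries left out, and the difference of the variance-stabilized values was −0.44. Dusp5 kept an unadjusted p under 0.05 by limma in all 19 alternatives, and its adjusted p ran from 0.0221 to 0.999. Its difference was −0.18 with the variance-stabilized values, and its log2 fold change was −0.72 to −0.52 with single libraries left out. Differences near 0 changed sign with single libraries left out. In neurons Dusp1 ranged from −0.078 to 0.10, and between first numbers Dusp8 ranged from −0.080 to 0.0044 and Spred1 from −0.0030 to 0.065. In astrocytes the ranges were −0.087 to 0.17 for Dusp4, −0.093 to 0.044 for Dusp1, −0.0024 to 0.25 for Dusp5, −0.046 to 0.037 for Dusp6, −0.18 to 0.089 for Spry1, −0.059 to 0.027 for Spry2, −0.037 to 0.096 for Spry4 and −0.054 to 0.027 for Spred1. With 3 libraries per group, astrocyte differences of the size of these intervals cannot be told from 0. In all cases the cause was not tested.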
